A study of Mus musculus with 12 samples.

Results

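The response of the young mouse retina to 4 episodes of raised intraocular pressure (IOP) was set against its response to 1 episode, gene by gene. The animals were wild-type (WT), and the study worked with C57BL/6 mice. For the 3mo IOP group, the pressure in an eye of 3-month-old animals was held at 30 mmHg for 1 h, and contralateral eyes left untreated gave the 3mo control group. For the 4xIOP group the same elevation was given 4 times, every 2 weeks, starting in animals aged 3 months, and the untreated contralateral eyes gave the 4xIOP control group. Whole retinas were taken 2 days after the last elevation, with 2 libraries per group, so that the 4xIOP animals were also older at collection by the weeks between the first and the last elevation. RNA was prepared from each eye, per the study's methods, and the study calls the libraries biological replicates. The labels do not say which control eye belongs to which treated eye. The question of the comparison is whether a mild elevation that is repeated gives another expression response than one that is not.

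Expression was given as FPKM, reads scaled to transcript length and to the reads of the library. Of the 25124 genes listed for each experiment, 23029 were measured on the same transcript in both, and the 11419 with a mean of at least 0.5 FPKM in each set of 4 libraries were followed. Of these, 10678 are protein-coding and 741 are not. A further 783 genes reached the limit only in the repeated-IOP libraries and 585 only in the single-IOP libraries. The genes nearest to the limit on the inner side were Zfp710 (mean 0.501 FPKM in the single-IOP libraries), Gprc5c (0.501) and Gpr157 (0.501), and on the outer side Tbc1d8b (0.4995 in the repeated-IOP libraries), Spata13 (0.49975 in the single-IOP libraries) and Fam83h (0.49975). A response is the change of log2(FPKM + 0.5) from control to treated retinas of the same experiment, and the difference of responses is the 4xIOP response minus the single IOP response, positive where the 4xIOP response was the higher. On this scale changes of weakly expressed genes are understated. Calls needed a limma p, adjusted after Benjamini and Hochberg, no larger than 0.05, together with a value on the log2 scale of 1 or more, or of -1 or less.

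Injury to the retina engages Muller glia, which span the tissue and take on a reactive state, and microglia, its resident macrophages. Cytokines of the interleukin-6 family signal through the receptor subunit gp130 and the transcription factor STAT3 and switch on acute-phase genes, while interferons switch on antigen presentation by MHC class I. MHC class II, which shows peptides to helper T cells, is largely held by macrophages, dendritic cells and B cells, and is low in resting microglia. Complement proteins tag synapses and debris for removal by such cells.

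The experiments differ in more than the number of elevations, and these differences cannot be told apart from it. Depth was between 39766245 and 56161913 reads per library. Between 44.2% and 53.7% of the reads lay in exons in the repeated-IOP libraries and between 66.0% and 71.5% in the single-IOP libraries. Genes that do not code for protein took between 9.0% and 11.4% of exon reads in the repeated-IOP libraries and between 1.98% and 2.06% in the others. The RNAse P component Rpph1, which has no poly(A) tail and which enrichment for poly(A) would deplete, stood at 53255 to 82734 FPKM in the former and at 6.39 to 28.0 FPKM in the latter. The X-inactivation transcript Xist was at 47.6 to 105 FPKM in every single-IOP library and at most at 0.005 FPKM in every repeated-IOP library, where the Y-linked Ddx3y was at 8.80 to 12.7 FPKM against 0 in the single-IOP libraries, so the experiments also differ in the sex of the animals. Taking each response within its own experiment removes what control and treated retinas share, not what changes how they respond. Among the single-IOP libraries, 3mo control replicate 2 stood apart in the ratio of the median FPKM of short to long transcripts, 4.70 against 1.89 in the other control and 2.99 and 3.26 in the treated retinas. Markers of tissue next to the retina also moved. The summed FPKM of 16 lens genes was 11.4 to 16.0 in 4xIOP control and 97.9 to 181 in 4xIOP retinas, and 49.7 to 74.9 against 104 to 107 after a single elevation. The sum of 14 pigment epithelium genes was 31.2 to 41.6 against 3.97 to 8.11 in the repeated experiment, and 222 to 235 against 316 to 728 in the single. In the single experiment the increase was carried by the melanin genes Dct, Pmel and Tyrp1, the last of which went from 11.8 and 3.11 to 73.8 and 32.2 FPKM, while Rpe65 went from 17.6 and 18.2 to 20.5 and 5.59 FPKM. The part of tissue carried over at dissection in the results was not tested.

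Many genes were called higher in both responses, and the difference itself was called in few. The 4xIOP response was called higher in 474 of 11419 genes (4.15%) and lower in 62 (0.543%), and the single IOP response was called higher in 247 (2.16%) and lower in 2 (0.0175%). The single IOP count depends on the processing, with 50 genes called higher with median-of-ratios size factors and with voom, 70 with quantile normalization, 76 when each experiment was fitted alone and 144 to 283 when a library was left out, and so do the counts that rest on it. Of the genes called higher, 195 were called in both, which is 41.1% of the 4xIOP list and 78.9% of the single IOP list. Over the genes, none of which is an independent replicate, both responses correlated with Pearson's r of 0.657 and Spearman's rho of 0.408, and they share no library. Without 3mo control replicate 1 Pearson's r was 0.422. The SD of the response across genes was 0.558 after 4 elevations and 0.349 after 1. Of the 247 genes called higher after a single elevation, 178 had a larger 4xIOP response, with a median of 2.12 against 1.49. The difference itself was called in 42 genes, 30 higher (0.263%) and 12 lower (0.105%). In all 42 every difference between a 4xIOP and a 4xIOP control library lay beyond every difference between a 3mo IOP and a 3mo control library. The calls were made on these same values, so the separation describes them and is no further support. All 30 genes called higher were also called higher in the 4xIOP response, and 15 of them after a single elevation. Of the 30, 23 had a control mean under 0.5 FPKM in at least 1 experiment, against 3.24% of all genes, and so reached the limit through the treated libraries. For such genes a higher level after treatment was a condition of being followed, and counts and medians of lists that hold them are given as a description.

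The size of this set rested on few libraries and on the processing. With the replicate number as a block, the difference was called higher in 95 genes and lower in 37. A crossed block, chosen after seeing the data, gave 166 and 83. The labels give no meaning to the replicate numbers. Without 4xIOP replicate 1 the difference was called higher in 5 genes and lower in 0, without 4xIOP replicate 2 in 8 and 2, and without 3mo control replicate 2 in 20 and 11. Saa3, Lcn2, H2-Aa and C3 kept their call whichever of the 8 libraries was left out. The genes followed were not chosen again for these fits. Saa3, H2-Aa and C3 had reached the limit through the treated libraries, so keeping the call is a description. With median-of-ratios size factors, which moved the median single IOP response from 0.14 to -0.05 and the median 4xIOP response from 0.09 to -0.02, 15 genes were called higher and 3 lower. The voom test on reads recovered from the FPKM called 0 of 11419 genes, with a smallest adjusted p of 0.146. It had 509 genes at an unadjusted p under 0.05, against 487 in the main limma test. In voom all 42 genes kept their direction with an unadjusted p under 0.05. They were chosen on these same libraries, so this describes them and is no further support.

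**Figure D1:**
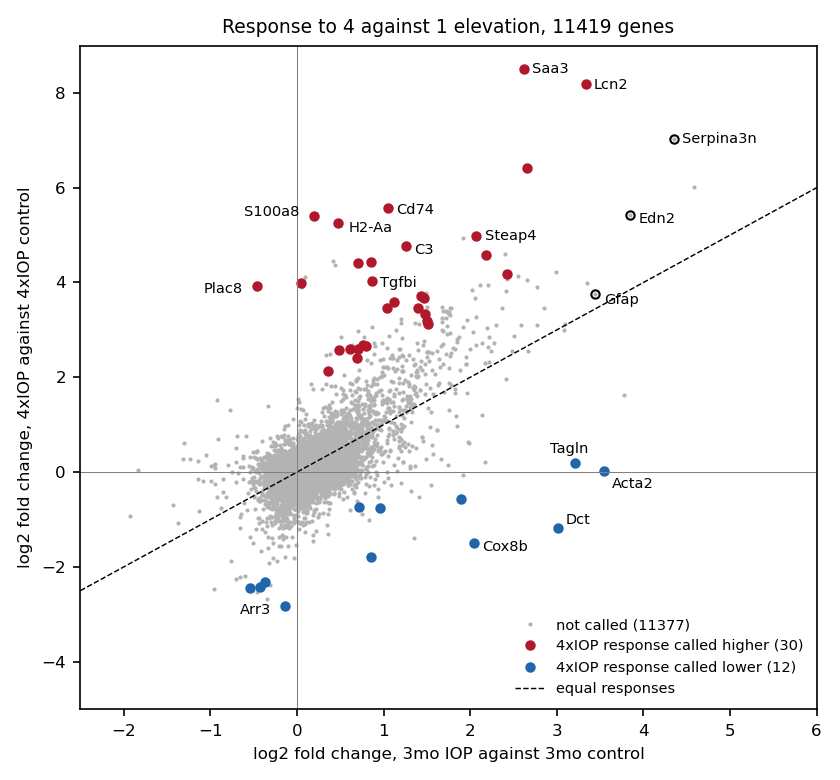
Each point is a gene, with its log2 fold change after 1 elevation (3mo IOP against 3mo control) on the horizontal and after 4 elevations (4xIOP against 4xIOP control) on the vertical axis, means of 2 libraries per group. Red points are the 30 genes and blue points the 12 genes whose difference of responses was called, and the dashed line marks equal responses. Saa3, S100a8 and Lcn2 lie furthest above the line, Dct, Cox8b and Acta2 furthest below it, and Gfap (open circle) lies close to it.

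The acute-phase genes Saa3 and Lcn2 were among the genes with the largest differences. Saa3, a serum amyloid A of the acute phase (chromosome 7, 46711998 to 46715676 in mm10), had 0 FPKM in all 4 control libraries, 4.21 and 1.51 FPKM in the 3mo IOP libraries, and 126 and 259 FPKM in the 4xIOP libraries. The groups did not overlap. Counted from a floor of 3 reads per library, its mean was at least 20.8-fold higher after a single elevation and at least 1339-fold higher after 4. The fitted difference of 5.88 ± 0.51 (SE, adjusted p = 0.000104) depends on the pseudocount and is no bound. Lcn2, lipocalin 2, which binds bacterial iron carriers (chromosome 2, 32384637 to 32387739), was at 4.67 and 5.63 FPKM in the 3mo controls, 46.5 and 68.0 in 3mo IOP, 1.43 and 0.951 in 4xIOP control, and 284 and 825 in 4xIOP. It rose in both experiments, by 3.33 and by 8.18 on the log2 scale, and the difference was 4.85 ± 0.56 (SE, adjusted p = 0.000934). Steap4, a metalloreductase, went from 0.108 and 0.107 to 2.12 and 1.98 FPKM after a single elevation and from 0.144 and 0.181 to 11.95 and 34.9 FPKM after 4 (difference 2.92 ± 0.50, adjusted p = 0.02). Socs3, the feedback inhibitor of gp130 signalling, went from 0.956 and 0.801 to 7.77 and 6.09 FPKM and from 0.351 and 0.313 to 16.2 and 13.2 FPKM (difference 1.76 ± 0.30, adjusted p = 0.0214).

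These 4 genes were the ones called among 18 measured genes of a list of 29 on gp130, STAT3 and the acute phase (0.263% of all genes). The median difference of the list was 1.09, against -0.04 over all genes, and all 18 differences were above 0. Saa3, Steap4 and Socs3 are among 6 genes of the list that reached the limit through the treated libraries. Of the 18 genes, 16 were called higher in the 4xIOP response and 13 in the single IOP response (4.15% and 2.16% of all genes). Serpina3n, a serine protease inhibitor of reactive glia, was among the largest responses of both experiments. It went from 8.18 and 3.04 to 106 and 120 FPKM after a single elevation, and from 0.593 and 1.34 to 118 and 289 FPKM after 4, a difference of 2.67 ± 0.62 that was not called (adjusted p = 0.122). Cebpd, a transcription factor of the acute phase, and Bcl3, an atypical NF-kB inhibitor, had differences of 0.64 ± 0.40 and 0.60 ± 0.37. Their 95% intervals, from -0.22 to 1.51 and from -0.18 to 1.39, reach past 1. Lif, a ligand of gp130, was not among the genes followed. It was read on different transcripts, at 0.607 and 0.375 FPKM in 3mo IOP and at 0.315 and 0.395 FPKM in 4xIOP retinas, over control values of at most 0.092 FPKM.

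MHC class II had 5 genes called higher (0.263% of all genes). Of 8 genes on the list 7 were measured, 5 of which, H2-Aa, Cd74, H2-Eb1 and H2-Ab1 among them, reached the limit through the treated libraries. All 7 were called higher in the 4xIOP response and 2 after a single elevation (4.15% and 2.16% of all genes), and the median difference was 3.57. H2-Aa, the alpha chain of the I-A molecule (chromosome 17, 34282744 to 34287823), had 1.25 and 1.36 FPKM in control retinas and 2.71 and 1.46 FPKM after a single elevation, against 0.202 and 0.19 in 4xIOP control and 36.0 and 18.7 in 4xIOP. The single IOP response of 0.47 was not called, the 4xIOP response was 5.25, and the difference was 4.78 ± 0.42 (SE, adjusted p = 0.000104). Cd74, the invariant chain that guides class II molecules to the endosome, went from 0.655 and 1.00 to 3.20 and 1.504 FPKM and from 0.228 and 0.195 to 50.6 and 22.1 FPKM (difference 4.53 ± 0.50, adjusted p = 0.000619). H2-Ab1, the beta chain of I-A, and H2-Eb1, the beta chain of I-E, had differences of 3.57 ± 0.49 and 3.69 ± 0.41 (adjusted p = 0.00384 and 0.000701). Ctss, cathepsin S, which trims the invariant chain, was the most abundant gene of the list, and went from 9.83 and 16.9 to 47.0 and 26.9 FPKM after a single elevation and from 4.80 and 3.89 to 70.6 and 56.0 FPKM after 4, with a difference of 2.29 ± 0.45 (adjusted p = 0.0493). H2-DMa, which loads peptides, had a difference of 1.19 ± 0.37 that was not called (adjusted p = 0.407). In this family, as in MHC class I, reads from similar genes can be hard to place, and only uniquely placed reads were counted.

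The promoters of 30 of the 42 called genes could be read from RefSeq windows (GRCm38.p6, 250 bases before to 50 bases after the start of transcription), 22 of genes called higher and 8 of genes called lower, and 9 motifs were searched in them on both strands, the TATA word on the sense strand alone. The Y box word CTGATTGG, known from MHC class II promoters, stood in 3 of the 22 windows, those of H2-Aa, H2-Eb1 and Plac8, in 1 of the 8 windows of genes called lower, and in 4.10% of all 32851 windows of this length, several of which can belong to a gene. The C/EBP word TTNNGCAA stood in 5 of the 22, those of Saa3, Lcn2, C3, Steap4 and Fcgr3, in 1 of the 8, and in 10.8% of all. The PU.1 word GAGGAAG, of a factor of myeloid cells, stood in 7 of the 22, in 2 of the 8, and in 13.6% of all. With so few windows, and with the Y box at similar shares in those of genes called higher and lower, none of these words is given as particular to the genes called higher. The other 6 motifs stood in at most 3 of the 22 and at most 1 of the 8. Over all windows their shares were 4.81% for STAT (TTCCNNGAA or TTCNNGGAA), 2.05% for CRX (CTAATCC), 8.46% for kappa B, 1.63% for the CArG box, 9.54% for CREB or AP-1 (TGACGTCA or TGANTCA) and 8.32% for TATAAA. Windows of H2-Aa, H2-Eb1, Plac8, Saa3 and C3, whose genes were called higher and hold these words, are shown by the 150 bases before the start of transcription, 5′ to 3′ on the strand of the gene, with the Y box in capitals in the top 3 and the C/EBP word in capitals in the others.
H2-Aa, chr17:34287824-34287973, minus strand: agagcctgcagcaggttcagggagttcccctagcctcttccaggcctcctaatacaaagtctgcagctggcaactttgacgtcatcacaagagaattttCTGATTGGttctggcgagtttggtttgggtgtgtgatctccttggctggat
H2-Eb1, chr17:34305717-34305866, plus strand: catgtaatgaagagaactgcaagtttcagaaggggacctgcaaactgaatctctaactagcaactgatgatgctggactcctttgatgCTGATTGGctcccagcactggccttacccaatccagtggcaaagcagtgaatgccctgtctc
Plac8, chr5:100572206-100572355, minus strand: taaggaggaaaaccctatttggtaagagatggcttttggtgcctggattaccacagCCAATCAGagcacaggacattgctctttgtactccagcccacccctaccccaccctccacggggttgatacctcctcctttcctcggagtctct
Saa3, chr7:46715677-46715826, minus strand: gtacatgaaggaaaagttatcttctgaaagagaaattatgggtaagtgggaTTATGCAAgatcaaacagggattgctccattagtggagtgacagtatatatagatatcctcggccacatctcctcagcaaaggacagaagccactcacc
C3, chr17:57228137-57228286, minus strand: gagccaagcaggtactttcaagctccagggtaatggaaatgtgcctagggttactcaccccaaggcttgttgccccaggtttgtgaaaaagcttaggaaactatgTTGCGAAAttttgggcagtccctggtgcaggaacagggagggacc

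In H2-Aa and H2-Eb1 the Y box begins 51 and 62 bases before the start of transcription, in the orientation of the gene, and in Plac8 it is read on the other strand. In Saa3 the C/EBP word begins 99 bases before the start, in the orientation of the gene. In C3 it is read on the other strand, and its stretch begins 45 bases before the start. No binding was measured in these retinas, and a match is a description of the letters alone.

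Microglial and leukocyte markers were also among the genes called higher. Of 16 microglial genes 13 were measured, 8 of them through the treated libraries. The difference was called higher in 2 (0.263% of all genes), and the median difference was 1.17. The 4xIOP response was called higher in 11 and the single IOP response in 3 (4.15% and 2.16% of all genes). Aif1, which encodes the microglial marker Iba1, was at 1.06 and 1.82 FPKM in the 3mo controls, 3.52 and 3.34 in 3mo IOP, 0.504 and 0.316 in 4xIOP control, and 9.67 and 9.24 in 4xIOP (difference 2.41 ± 0.33, adjusted p = 0.00384). Csf1r, the receptor that microglia and macrophages need to survive, was at 1.401 and 1.04, 2.53 and 2.04, 1.32 and 1.23, and 12.9 and 7.97 FPKM in the same order (difference 1.89 ± 0.35, adjusted p = 0.0345). Olfml3, at 2.08 to 7.39 FPKM in the single-IOP and 2.66 to 9.84 FPKM in the repeated-IOP libraries, responded by 1.31 and 1.37, and its difference was 0.06 ± 0.36. In bulk retina more cells of a type and more RNA per cell cannot be told apart.

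Of the 21 listed leukocyte genes 17 were below the limit in at least 1 experiment and 1 was read on different transcripts, so that the 3 that were followed, all called higher, do not stand for the list. Of these, S100a8 and Plac8 were below 0.5 FPKM in both 4xIOP control libraries, and Lyz2 was above it in every library. S100a8, a calcium-binding protein of neutrophils and monocytes, was at 0.373 and 0.541 FPKM in the 3mo controls, 1.43 and 0.124 in 3mo IOP, 0.13 and 0 in 4xIOP control, and 20.2 and 26.5 in 4xIOP. It did not differ after a single elevation beyond the spread (0.20 ± 0.39), and after 4 its mean was at least 120-fold above a floor of 3 reads, with a fitted difference of 5.19 ± 0.55 (adjusted p = 0.000465). Lyz2, lysozyme of macrophages and granulocytes, went from 5.48 and 5.12 to 71.4 and 18.0 FPKM after a single elevation and from 0.837 and 0.764 to 113 and 107 FPKM after 4 (difference 3.75 ± 0.61, adjusted p = 0.0147). Plac8 was at 1.49 and 10.4 FPKM in the 3mo controls, 4.28 and 1.90 in 3mo IOP, 0.289 and 0 in 4xIOP control, and 14.5 and 5.51 in 4xIOP. Its difference of 4.37 ± 0.86 (adjusted p = 0.0494) had the widest error of the genes called higher, and its 3mo control libraries lay far apart. Over all 21 genes the summed FPKM was 8.26 to 16.8 in 3mo control, 22.6 to 80.5 in 3mo IOP, 1.24 to 1.74 in 4xIOP control and 169 to 184 in 4xIOP, and 1 to 9 of the genes were at 0 in a library. Most of the sum in the treated libraries was Lyz2 alone. Ptprc, the common leukocyte antigen CD45, was at 4.34 and 2.97 FPKM in 4xIOP and at most at 0.326 FPKM in the other 6 libraries. The T cell gene Cd3e and the neutrophil gene Ly6g were at most at 0.135 and 0.053 FPKM in any library.

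**Figure D2:**
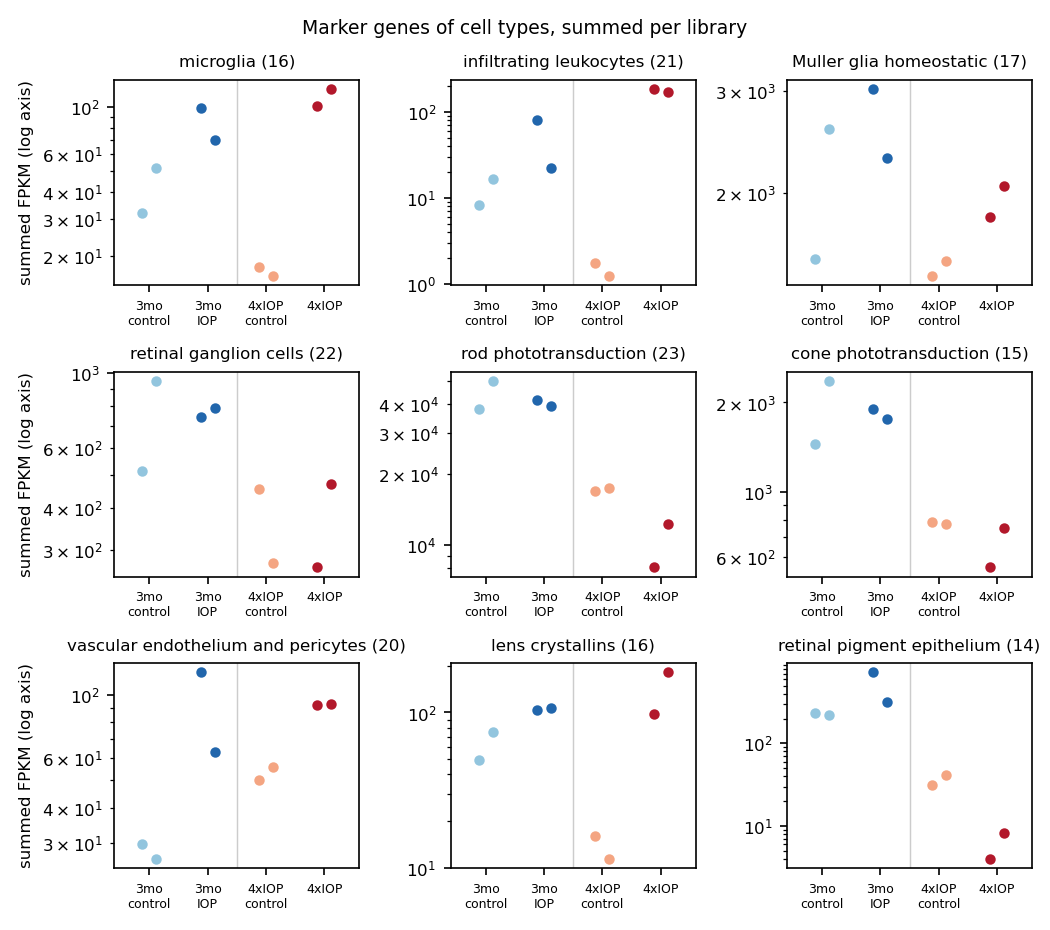
Each panel sums the FPKM of a list of marker genes (number of genes in parentheses) in each library, on a log axis, with the single-IOP groups left and the repeated-IOP groups right of the grey line and a point per library. Leukocyte and microglial sums were lowest in the 4xIOP control libraries and highest in the 4xIOP libraries, lens sums were 97.9 to 181 in 4xIOP, and pigment epithelium sums were 3.97 to 8.11 in 4xIOP.

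Lcp1, Cd52, Cd53, Mpeg1, Fcgr3, Fcer1g, Ncf1, Nckap1l, Cyth4, Pld4, Ms4a6b and Ms4a6d were called higher and belong to none of the lists. As background, Fcgr3 and Fcer1g encode parts of receptors for antibodies, Ncf1 a subunit of the phagocyte NADPH oxidase, and Mpeg1 a pore-forming protein of macrophages. The differences of the group, which was put together after its values were seen, lay between 1.62 (Fcer1g) and 2.47 (Lcp1). All of the group but Cd52 and Fcer1g reached the limit through the treated libraries. Tgfbi, a matrix protein induced by TGF-beta and also made by macrophages, went from 0.205 and 0.513 to 1.15 and 0.926 FPKM and from 0.075 and 0.114 to 9.46 and 8.96 FPKM (difference 3.17 ± 0.33, adjusted p = 0.000465). It was the one gene called among 14 of the TGF-beta and BMP list, whose median difference was 0.19. Of the 14, 4 reached the limit through the treated libraries, Tgfbi among them.

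Complement had 2 genes called higher of 12 followed (0.263% of all genes), with a median difference of 1.25. Of the 20 genes on the list 7 were below the limit, and 3 of the 12, C3 among them, reached it through the treated libraries. C3, on which the complement pathways converge, was at 0.146 and 0.271 FPKM in the 3mo controls, 0.975 and 1.43 in 3mo IOP, 0.158 and 0.209 in 4xIOP control, and 18.8 and 17.6 in 4xIOP. Both 4xIOP libraries lay above all others, and the responses were 1.26 and 4.78 (difference 3.52 ± 0.31, adjusted p = 0.000104). C1qa, a subunit of the C1q complex that microglia make, went from 5.17 and 8.09 to 21.4 and 16.8 FPKM and from 2.62 and 3.29 to 34.5 and 33.6 FPKM (difference 1.85 ± 0.36, adjusted p = 0.0475). Cd59a, a membrane inhibitor of complement, had a difference of 0.09 ± 0.39.

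A difference of responses can also come with unlike control levels. Of the 30 genes called higher, 26 had a lower mean in 4xIOP control than in 3mo control, against 64.5% of all genes. The 4xIOP mean was above the 3mo IOP mean in 29 of them, against 34.3% of all genes, and Fcer1g was the exception. In Fcer1g the treated levels were 13.7 and 12.6 FPKM after 1 and 12.6 and 13.2 FPKM after 4 elevations, while its controls were at 3.63 and 5.08 and at 1.12 and 0.943 FPKM. Levels of separate experiments were not tested against each other. In C3 the controls of both experiments were close, between 0.146 and 0.271 FPKM.

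**Figure D3:**
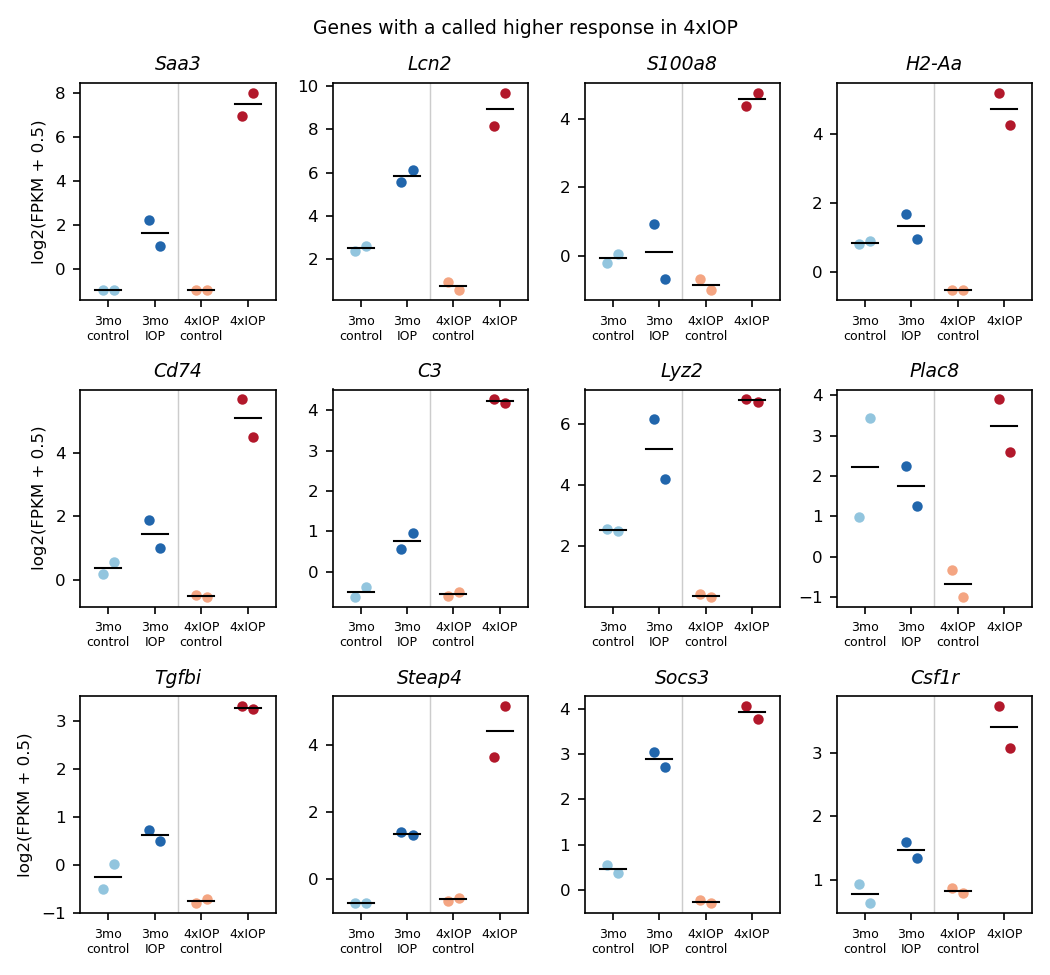
Values of 12 genes with a called higher difference, as log2(FPKM + 0.5) on the vertical axis, a point per library and a bar at the mean of the 2 libraries of each group. In Saa3, S100a8, H2-Aa, Cd74 and C3 both 4xIOP libraries lie above all 6 other libraries, and in Lyz2, Lcn2 and H2-Aa the 4xIOP control lies below the 3mo control.

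The interferon and MHC class I genes were among those called higher in each response. For lists of this size, 0 called differences is also what the share of 0.263% over all genes gives. Of 34 measured interferon response genes, 33 were called higher in the 4xIOP and 25 in the single IOP response (4.15% and 2.16% of all genes), 0 differences were called, 32 were above 0, and the median difference was 0.82, with 13 of the 34 having reached the limit through the treated libraries. Irgm1, a GTPase induced by interferon, went from 2.43 and 2.62 to 10.6 and 13.1 FPKM and from 1.00 and 1.14 to 33.4 and 14.5 FPKM, a difference of 1.83 ± 0.43 (adjusted p = 0.132). Ifitm3, the most abundant of the list, had responses of 2.77 and 3.10 and a difference of 0.33 ± 0.39, and Cxcl10, a chemokine induced by interferon, had 2.41 and 1.97 and a difference of -0.44 ± 0.51. Among 18 genes of MHC class I and antigen processing, 15 were called in the 4xIOP and 8 in the single IOP response, 0 differences were called, and the median difference was 1.20. B2m, the light chain of MHC class I, went from 80.6 and 85.6 to 282 and 251 FPKM and from 15.3 and 15.7 to 170 and 119 FPKM, a difference of 1.49 ± 0.43 (adjusted p = 0.316). H2-Q6 had the largest difference of the list, 2.35 ± 0.49 (adjusted p = 0.0654).

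Reactive gliosis is the response of Muller glia and astrocytes. Its list gave 0 called differences of 16 measured genes and a median of 0.62, against -0.04 over all genes. All 16 differences were above 0. Of the 16, 14 were called higher in the 4xIOP and 11 in the single IOP response (4.15% and 2.16% of all genes). Edn2 is among 3 of the 16 that reached the limit through the treated libraries. Gfap, the intermediate filament that marks reactive glia, went from 2.13 and 2.10 to 25.0 and 31.3 FPKM after a single elevation and from 2.14 and 2.69 to 46.1 and 32.7 FPKM after 4. Its responses of 3.44 and 3.76 differed by 0.32 ± 0.34, with a 95% interval from -0.42 to 1.05. Edn2, an endothelin made by stressed photoreceptors, rose in both by 3.85 and 5.43 (difference 1.58 ± 0.44, adjusted p = 0.281). Fgf2, a growth factor of the injured retina, rose by 2.20 and 3.94 (difference 1.74 ± 0.38, adjusted p = 0.0785), and Cd44, an adhesion receptor, by 1.36 and 3.14 (difference 1.79 ± 0.36, adjusted p = 0.0534). Timp1, an inhibitor of matrix proteases, had the largest single IOP response of all genes, 4.58, and a 4xIOP response of 6.01 (difference 1.43 ± 0.46, adjusted p = 0.471). The chemokine list had a median difference of 0.02 and the TNF and NF-kB list one of 0.20, with 0 of 11 and 0 of 10 genes called. Over the alternatives these medians ran from -0.20 to 1.501 and from -0.07 to 0.34.

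**Figure D4:**
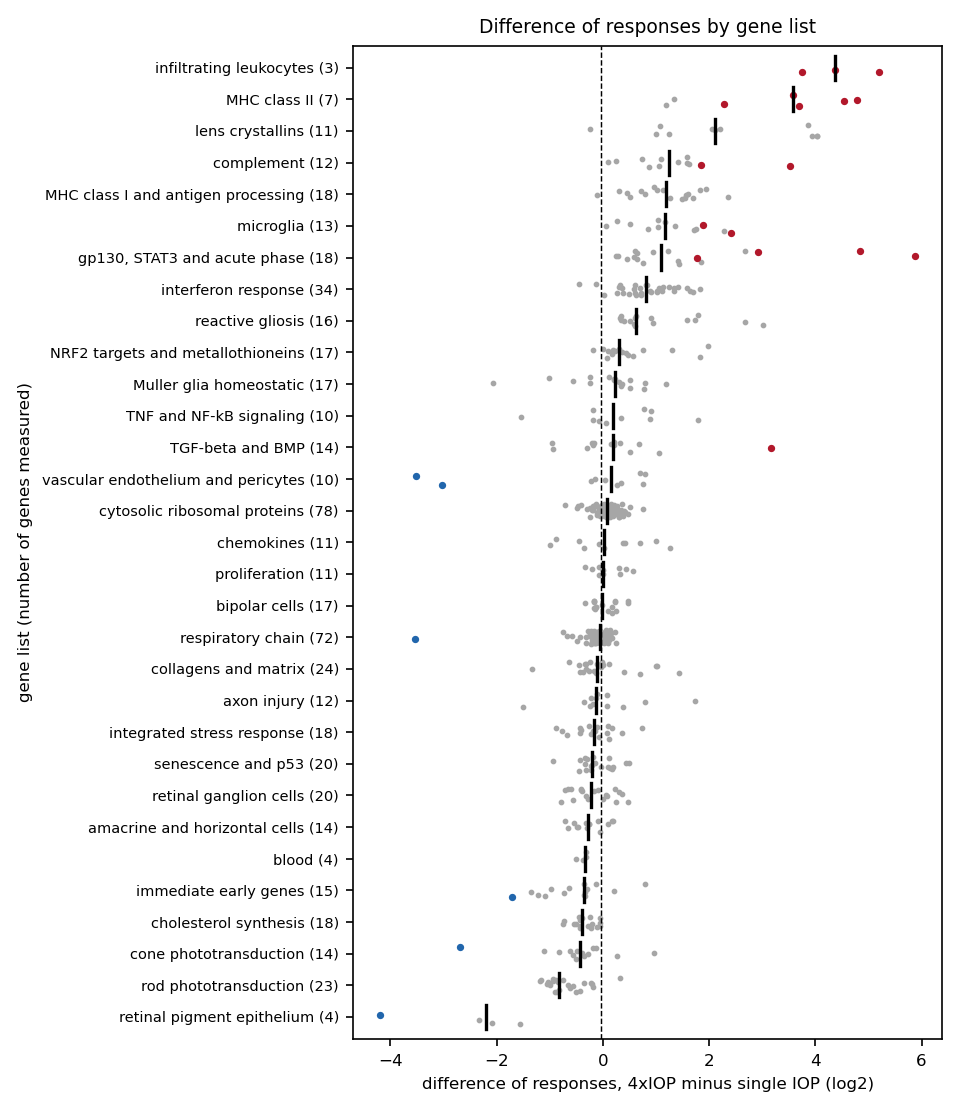
Each row is a gene list, with the number of its genes that were measured in parentheses, and each point is a gene at its difference of responses (log2), red where called higher, blue where called lower and grey where not called. Black bars mark list medians and the dashed line the median of all genes, -0.04. The median of MHC class II lies at 3.57 and that of the pigment epithelium, the lowest, at -2.20.

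The 12 genes called lower fell into unlike groups. Acta2 and Tagln, the smooth muscle actin and transgelin of contractile cells, rose after a single elevation and had 4xIOP responses near 0. Acta2 (chromosome 19, 34240336 to 34255373) was at 2.25 and 1.67 FPKM in the 3mo controls, 46.0 and 16.8 in 3mo IOP, 0.972 and 0.544 in 4xIOP control, and 0.869 and 0.656 in 4xIOP. The responses were 3.54 and 0.02, and the difference was -3.52 ± 0.51 (SE, adjusted p = 0.00558). Tagln went from 2.06 and 2.29 to 39.4 and 14.8 FPKM and from 1.34 and 0.943 to 1.49 and 1.23 FPKM (difference -3.02 ± 0.48, adjusted p = 0.0124). In the 3mo IOP libraries, in the same order, the sum of the pigment epithelium genes was 728 and 316 FPKM, and the part of tissue other than the retina in these responses was not tested. Rgs5 and Pdgfrb, markers of pericytes, had differences of 0.05 and -0.14. The 8 measured genes of the vascular list other than Acta2 and Tagln had differences between -0.22 and 0.79. Kdr, the endothelial VEGF receptor, rose after 4 elevations from 14.7 and 19.1 to 33.1 and 44.3 FPKM, a response of 1.17 against 0.41 after a single elevation (difference 0.76 ± 0.36).

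Dct, dopachrome tautomerase of pigment cells, was at 34.6 and 8.08 FPKM in the 3mo controls, 195 and 99.4 in 3mo IOP, 1.73 and 1.53 in 4xIOP control, and 0.245 and 0.683 in 4xIOP (difference -4.19 ± 0.70, adjusted p = 0.0164). Of the 14 pigment epithelium genes 4 were measured in both experiments, with differences of -1.56 to -4.19. Ttr and Rpe65, a carrier of retinol and the isomerase of the visual cycle, both characteristic of the pigment epithelium, fell in 4xIOP (responses of -2.67 and -2.26), while their single IOP responses were -0.34 and -0.70. Gpnmb, a glycoprotein of pigment cells and macrophages, rose by 3.77 after a single elevation, from 8.36 and 3.49 to 128 and 50.8 FPKM, and by 1.62 after 4 (difference -2.16 ± 0.59, adjusted p = 0.24). Pmel, another pigment gene, which was not among the genes followed, was at 76.2 and 27.2 FPKM in the 3mo IOP libraries, the same in which Dct was high, and at 0.109 and 0.179 FPKM in 4xIOP. The pigment epithelium is not part of the neural retina. Rgr had responses of -0.46 and -2.54. In Rgr, Ttr and Rpe65 the 4xIOP response was called lower and the single IOP response was not called. In each of them 1 3mo IOP library lay above both controls and the other below both. Dct, Pmel and Tyrp1 were higher in both 3mo IOP libraries than in either control and lower in both 4xIOP libraries than in either control.

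Cox8b, a subunit of cytochrome c oxidase found mainly in heart and muscle, was the one gene called in opposite directions. It went from 5.17 and 7.87 to 31.9 and 24.4 FPKM after a single elevation and from 1.89 and 0.987 to 0 and 0.395 FPKM after 4 (difference -3.54 ± 0.44, adjusted p = 0.00195). It was the one gene called of 72 measured genes of the respiratory chain, whose median was -0.05.

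Arr3, the arrestin of cone photoreceptors (chromosome X, 100605497 to 100618493), was at 155 and 146 FPKM in the 3mo controls, 155 and 121 in 3mo IOP, 137 and 190 in 4xIOP control, and 21.8 and 22.9 in 4xIOP. The 6 other libraries overlapped and both 4xIOP libraries lay far below them, so that the response was -2.83 after 4 elevations and -0.13 after 1 (difference -2.69 ± 0.44, adjusted p = 0.0155). It was the one gene called of 14 measured cone phototransduction genes, whose median difference was -0.43. Gnb3, the beta subunit of cone transducin that bipolar cells also use, rose after 4 elevations, from 86.6 and 90.0 to 262 and 343 FPKM in the repeated experiment, with a difference of 0.96 ± 0.49.

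Glb1l3, Gm11961 and E130310I04Rik were likewise low in 4xIOP. Their single IOP responses of -0.43, -0.37 and -0.54 were not called, although in each gene both 3mo IOP libraries lay below both controls. Glb1l3 went from 9.72 and 6.90 to 0.889 and 1.404 FPKM, Gm11961 from 13.3 and 15.6 to 2.40 and 2.61 FPKM, and E130310I04Rik from 13.03 and 17.8 to 2.03 and 2.74 FPKM in the repeated experiment, with differences of -1.99 ± 0.35, -1.94 ± 0.32 and -1.91 ± 0.34. E130310I04Rik lies opposite to Mylk and Tagln opposite to Pcsk7, and reads were counted by strand. Ccn2, a matricellular protein that responds to stretch, was at 2.39 and 3.27 FPKM in the 3mo controls, 6.66 and 5.24 in 3mo IOP, 7.71 and 9.57 in 4xIOP control, and 5.11 and 4.68 in 4xIOP (difference -1.71 ± 0.32, adjusted p = 0.0397). Here the 4xIOP control level was the highest of the 4 groups. Necab2, a neuronal calcium-binding protein, went from 5.27 and 5.45 to 9.27 and 8.97 FPKM and from 6.70 and 6.59 to 3.71 and 3.82 FPKM (difference -1.46 ± 0.28, adjusted p = 0.0475). The small nucleolar RNAs Snord35b and Snord58b lie inside longer genes, from which their reads cannot be told apart, and had at most 4.73 FPKM and in some groups 3 reads or fewer.

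**Figure D5:**
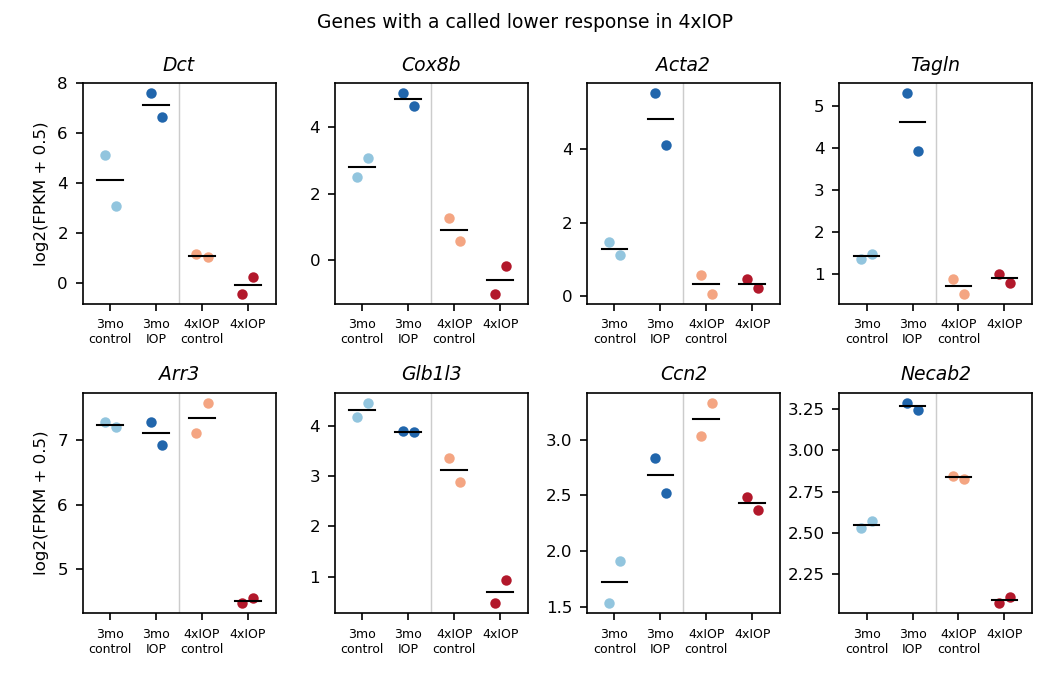
Values of 8 genes with a called lower difference, as log2(FPKM + 0.5) on the vertical axis, a point per library and a bar at the mean of each group of 2. Dct, Cox8b, Acta2 and Tagln were highest in 3mo IOP, Arr3 and Glb1l3 were lowest in 4xIOP, and Ccn2 and Necab2 were higher than control in 3mo IOP and lower than control in 4xIOP, in both libraries.

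Of 23 measured rod phototransduction genes 0 differences were called, which is also what the share over all genes gives for so few. In 14 of the 23 every library difference of the repeated experiment lay below every one of the single, as in 7.99% of all genes, 1 difference was above 0, and the median was -0.83, with medians of -0.80 in the 4xIOP and -0.16 in the single IOP response. Nrl, the transcription factor of rod identity, had the lowest difference of the list, -1.19 ± 0.58. Sag, rod arrestin, was the one above 0, with 0.33 ± 0.95. The median differences of retinal ganglion cell, bipolar, and amacrine and horizontal cell genes were -0.22, -0.02 and -0.28, with 0 of 20, 0 of 17 and 0 of 14 genes called in the difference and 0 in either response. Nefm, a neurofilament of ganglion cells, had a difference of -0.79 ± 0.52, and Sncg, gamma-synuclein of the same cells, one of 0.07 ± 0.78, with 95% intervals of -1.91 to 0.33 and -1.61 to 1.74. Among 17 genes of resting Muller glia 0 differences were called and the median was 0.24, with the largest spread between Spc25 (-2.07 ± 0.48, adjusted p = 0.109) and Crym (1.19 ± 0.58). Glul, glutamine synthetase of Muller glia, was at 579 and 592 FPKM in 4xIOP control and 249 and 292 in 4xIOP, a response of -1.12 that was not called.

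Of 15 measured immediate early genes 1 difference was called, that of Ccn2, which the list holds as a target of stretch, and 2 were above 0, with a median of -0.36. Atf3, a stress factor of injured neurons, was the largest, with responses of 1.48 and 2.27 and a difference of 0.80 ± 0.36. The senescence and p53 list had a median of -0.20 and 0 of 20 genes called. Cdkn1a, the inhibitor p21, had responses of 0.68 and 0.79 and Mmp14, a membrane matrix protease, of 1.09 and 1.05, and the signs of their differences, 0.11 ± 0.33 and -0.03 ± 0.35, changed with the processing. Gdf15 and Plaur, below the limit, were at most at 0.401 and 0.742 FPKM. Lists on axon injury (median -0.12), proliferation (-0.0030), the integrated stress response (-0.17), collagens and matrix (-0.12), cholesterol synthesis (-0.40) and blood (-0.34) held 0 called differences of 12, 11, 18, 24, 18 and 4 genes. Of 17 NRF2 targets and metallothioneins 0 were called with a median of 0.30, and Mt2, a metallothionein, had the largest difference, 1.97 ± 0.56 (adjusted p = 0.287). The 78 cytosolic ribosomal protein genes had a median of 0.07 and 0 calls. Among 11 lens genes, 8 of which reached the limit through the treated libraries, 0 differences were called with a median of 2.12, and Cryba1, a beta-crystallin, had 4.03 ± 0.88 (adjusted p = 0.0873).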

How the data were processed

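Bulk RNA-seq of 8 of the 12 libraries was used, 2 in each of 4 groups, grouped by the labels. Per the labels all libraries were poly(A)-enriched and strand-specific, but RNAs without a poly(A) tail were abundant in the repeated-IOP libraries, which goes against that label there. The authors aligned reads with STAR 2.7.8a to mm10 and counted uniquely mapped exon reads with HOMER. The deposited values are FPKM, in a table per experiment, without pooling of replicates.

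FPKM times transcript length gave whole reads, within 0.1 read, for at least 99.9% of the values checked, from which depth was recovered. The floor of 3 reads per library covers counting error only. The values log2(FPKM + 0.5) of 11419 genes were fitted in limma 3.58.1 (R 4.3.3) as 4 groups with a variance trend (4 residual and 9.74 prior degrees of freedom). Both responses and their difference were contrasts of this fit, adjusted after Benjamini and Hochberg over all genes. The steps were tested on simulated data. The study calls the 2 libraries of a group biological replicates, and no exact permutation test of a single gene could reach 0.05.

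Genes and lists were chosen with earlier results of these data known. Named genes were the 10 largest and 10 smallest called differences, the largest, smallest and most abundant gene of each list, the 5 largest and 5 smallest called changes of each response, and 12 genes of the study. The other called genes and the markers Ptprc, Cd3e, Ly6g, Pmel, Tyrp1, Rgs5 and Pdgfrb were added after their values were seen. Some genes are not reported here. Same-numbered libraries did not deviate together (r = -0.271 and -0.342). Alternatives were other pseudocounts (0.1 and 1), limits, size factors, quantile normalization, removed trends with transcript length and GC content, no variance trend, a replicate block, the adjusted p alone, matching by symbol, the 18mo libraries in the fit, separate fits, voom on recovered reads, and leaving out each library.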

Additional observations from a re-analysis of the deposited data

Results flagged for a closer look

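These genes stand here because the limma test of the difference between the 4xIOP and the single IOP response passed its threshold. Values are differences of log2 responses. The 4xIOP response was higher in Saa3 (5.88), S100a8 (5.19), Lcn2 (4.85), H2-Aa (4.78), Cd74 (4.53), Plac8 (4.37), Lyz2 (3.75), H2-Eb1 (3.69), H2-Ab1 (3.57), C3 (3.52), Tgfbi (3.17), Steap4 (2.92), Lcp1 (2.47) and Aif1 (2.41). It was also higher, by smaller differences, in Cd52 (2.40), Ctss (2.29), Mpeg1 (2.21), Ms4a6b (2.09), Fcgr3 (2.07), Cyth4 (1.99), Cd53 (1.91), Csf1r (1.89), Ncf1 (1.86), C1qa (1.85), Nckap1l (1.78), Socs3 (1.76), Pld4 (1.71), Ms4a6d (1.70) and Fcer1g (1.62). It was lower in Necab2 (-1.46), Ccn2 (-1.71), E130310I04Rik (-1.91), Gm11961 (-1.94), Glb1l3 (-1.99), Snord58b (-2.46), Snord35b (-2.64), Arr3 (-2.69), Tagln (-3.02), Acta2 (-3.52), Cox8b (-3.54) and Dct (-4.19). Sex, RNA content and the number of elevations cannot be told apart between the experiments.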

How the results depend on the processing

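The difference of responses was called higher in 30 and lower in 12 genes. Without a filter on low values it was called in 39 and 10, of which 13 and 3 were among those called before, and with a mean of at least 2 FPKM in 17 and 7, of which 10 and 6 were. The counts were 15 and 3 with median-of-ratios size factors, 8 and 3 with quantile normalization, 11 and 7 with the 18mo libraries in the fit, and 0 and 0 with voom, which had 509 genes at an unadjusted p under 0.05. The cause was not tested. Leaving out each library gave 5 to 54 higher and 0 to 22 lower, and for the 4xIOP response 278 to 497 higher and 26 to 75 lower, for the single IOP response 144 to 283 higher and 1 to 9 lower, and for the correlation of responses 0.422 to 0.668. Without a filter on low values the single IOP response was called higher in 146 genes and the correlation was 0.571. The single IOP response was called higher in 50 genes with median-of-ratios size factors, 70 with quantile normalization, 76 in separate fits and 50 with voom. It was called lower in 1 gene with each of these but voom, with the length trend removed and without a variance trend, and in 0 with voom, with the higher limit and with the 18mo libraries. The 4xIOP response was called higher in 270 genes with the higher limit and lower in 96 with quantile normalization.

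Same-numbered libraries did not deviate together over all genes, but the summed FPKM of 7 blood genes went with the number in the single experiment, 19.5 and 29.3 in 3mo control and 3mo IOP replicate 1 against 262 and 313 in replicate 2. The labels give no meaning to the numbers. A replicate block gave 95 higher and 37 lower differences and 11 genes lower in the single IOP response. A crossed replicate block, chosen after seeing the data, gave 166 and 83, and 12.

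Of 31 list medians 12 took both signs over the alternatives, among them blood (-2.02 to 1.31), cytosolic ribosomal proteins (-0.56 to 0.68), respiratory chain (-0.64 to 0.59), retinal ganglion cells (-0.63 to 0.14) and axon injury (-0.19 to 0.26), so no direction is given for these lists. Among single named genes the sign of 2 small differences changed. That of Mmp14 was 0.062 with median-of-ratios size factors, 0.012 with quantile normalization, 0.067 with length and GC trends removed, and 0.21, 0.26, 0.05 and 0.08 without 3mo control replicate 2, 3mo IOP replicate 1, 4xIOP control replicate 2 and 4xIOP replicate 2, against a lowest value of -0.326 without 3mo IOP replicate 2. That of Cdkn1a ran from -0.072 without 3mo IOP replicate 2 to 0.289 without 3mo IOP replicate 1, and was -0.058 without 4xIOP replicate 1. Genes below the limit were left out of the test, and for those at 3 reads or fewer in a group a fold could be given only as a bound.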

Other observations

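Several genes of immune cells were too low in the single-IOP libraries to be followed and are given as values, chosen after they were seen and without a test. S100a9, the partner of S100a8, was at 12.1 and 16.0 FPKM in 4xIOP and at most at 0.512 FPKM in the other libraries. Il1b, interleukin-1 beta, was at 4.72 and 4.17 FPKM in 4xIOP and at most at 0.22 FPKM elsewhere. Ccr2, the chemokine receptor of inflammatory monocytes, was at 4.18 and 3.03 FPKM and at most at 0.134 FPKM elsewhere. Adgre1, which encodes the macrophage marker F4/80, was at 5.31 and 5.34 FPKM against at most 0.505 FPKM, and Cfb, complement factor B, at 8.78 and 3.04 FPKM against at most 0.651 FPKM.

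When genes were matched by symbol, so that both experiments could be read on different transcripts, 39 differences were called higher and 15 lower, with 30 and 12 of them called by transcript too. Of the others, 3 could not be followed by transcript, all called higher. Itgam, the integrin CD11b, had responses of 0.79 and 3.13 (difference 2.33 ± 0.31, limma adjusted p = 0.00238). Unc93b1, which carries Toll-like receptors to the endosome, had a difference of 2.31 ± 0.33, and Ms4a6c one of 2.06 ± 0.39. Unlike transcripts can set part of such a difference, which was not tested.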
